A study of Mus musculus with 28 samples.

Results

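The superior colliculus (SC) at postnatal day 7.5 (P7.5) was profiled by axon-TRAP in 4 libraries, of which 2 came from Cre-positive mice, whose retinal ganglion cells (RGCs) carried tagged ribosomes, and 2 from Cre-negative mice, whose ribosomes carried no tag. Of the 23995 genes listed in the files, 1845 reached a level of 1 FPKM (fragments per kilobase of transcript, scaled to the mapped total of the library) in at least 2 of these 4 libraries, and these genes were compared. All mice were C57BL/6 and carried the RiboTag allele, in which Cre recombination replaces the ribosomal protein RPL22 by a version with a hemagglutinin (HA) tag. The Cre-positive mice carried Pax6-alpha-Cre in addition, a transgene active for a short time in progenitors of the peripheral retina, so that the RGCs descended from these progenitors kept the tag for life. Both groups went through the same anti-HA immunoprecipitation, per the study's methods on pooled SCs of littermates, followed by oligo(dT) reverse transcription and PCR amplification. The Cre-negative libraries therefore hold the RNA that the antibody and beads retain without a tag. The series holds 28 libraries in all, from SC and retina at the embryonic stage E17.5, at P0.5, P7.5 and in the adult, each group with 2 replicates, besides an adult run-off experiment not analysed here. Per the study, the retina libraries hold ribosome-bound mRNA from Cre-positive mice. The comparison asks which mRNAs were recovered with axonal ribosomes beyond the background while retinal arbors were being pruned.

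RGC axons leave the eye through the optic nerve and end in the superficial layers of the SC, where the cell bodies belong to resident neurons, glia and vessels. In the first postnatal weeks misplaced branches are removed and the remaining ones form dense, topographically ordered arbors. Axons hold ribosomes and mRNAs far from the soma, among which mRNAs for ribosomal proteins, mitochondrial proteins and the cytoskeleton are commonly described. A ribosome with tagged RPL22 is pulled down with the mRNA on which it sits, so the amount of an mRNA recovered depends on the number of axons, the amount of mRNA in each and the number of ribosomes on it. These parts, like fewer cells of a type and less RNA per cell, cannot be told apart in bulk tissue.

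The 4 libraries resembled each other more by replicate number than by genotype. Across the 1845 genes, on log2(FPKM + 1), the pair of replicate 1 libraries correlated with Pearson's r = 0.887 and the pair of replicate 2 libraries with r = 0.728. In contrast, r was 0.645 between the Cre-positive libraries and 0.621 between the Cre-negative libraries, close to the 0.646 and 0.613 of the pairs that shared neither genotype nor number. The corresponding Spearman's rho was 0.787 and 0.689 for the same number and 0.475 and 0.496 for the same genotype. The typical gene differed by 0.83 and 0.88 on the log2 scale within the same-numbered pairs and by 1.67 and 1.74 within a genotype, given as the median absolute difference. These correlations are across genes of the same libraries, and genes are not independent replicates. The labels do not say what the replicate number stands for.

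**Figure D1:**
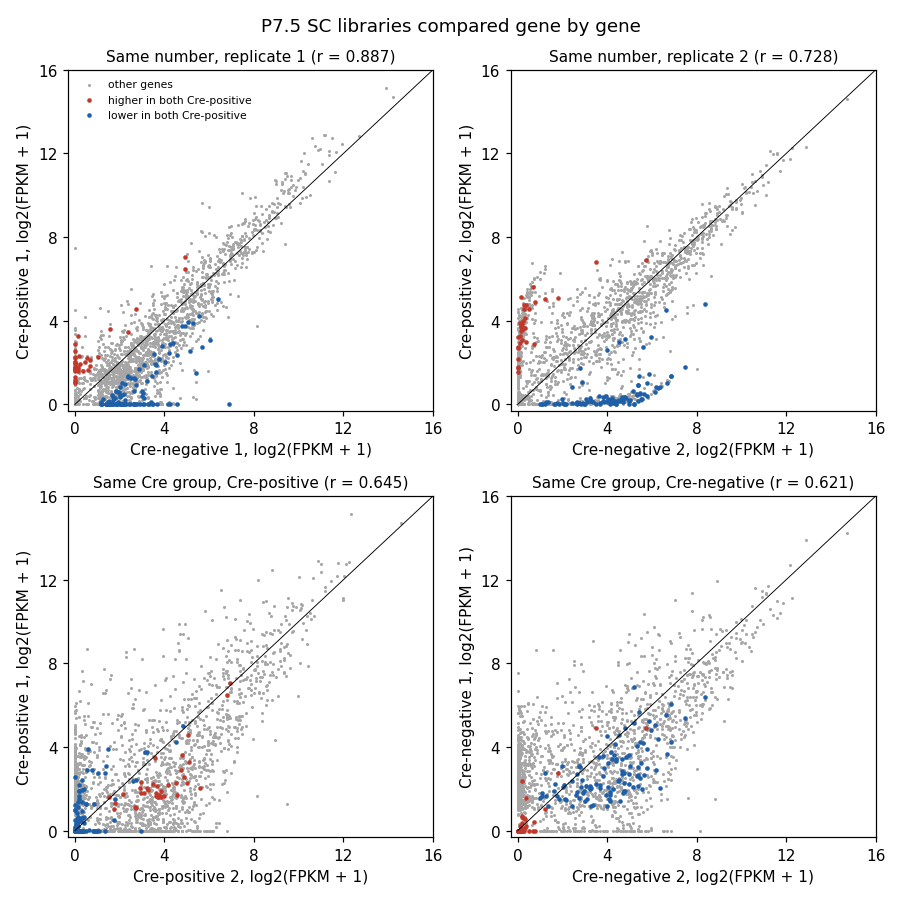
Each panel plots log2(FPKM + 1) of the 1845 genes in a pair of P7.5 SC libraries. Points lie closer to the diagonal in the upper panels, where libraries share the replicate number (r = 0.887 and 0.728), than in the lower panels, where they share the genotype (r = 0.645 and 0.621), and the genes higher (35, red) or lower (105, blue) in both Cre-positive libraries lie at the edges of the upper panels.

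Individual genes showed this pattern plainly, and the following were picked after their values were seen. Glul, the glutamine synthetase of astrocytes, stood at 200 and 0.244 FPKM in Cre-positive replicates 1 and 2 and at 100 and 0 FPKM in Cre-negative replicates 1 and 2. Unc13a, a priming factor of synaptic vesicles, stood at 126 and 0.631 FPKM in the Cre-positive and at 64.6 and 0.602 FPKM in the Cre-negative libraries. Syt4, a synaptotagmin, had the opposite order, with 1.44 and 708 FPKM in the Cre-positive and 1.84 and 445 FPKM in the Cre-negative libraries. For each of these genes the replicates of a genotype were more than an order of magnitude apart, and both libraries of a number were on the same side, either high or low.

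Of the 1845 genes, 774 (42.0%) reached 1 FPKM in all 4 libraries and 368 (19.9%) in any 3. A further 293 (15.9%) did so in both replicate 1 libraries alone and 84 (4.55%) in both replicate 2 libraries alone. Only 46 genes (2.49%) did so in both Cre-positive libraries alone, and 100 (5.42%) in both Cre-negative libraries alone. The remaining 149 and 31 genes reached 1 FPKM in a pair that shared neither genotype nor number. Values stayed close in few genes: all 4 lay within 1 of each other on the log2 scale for 99 genes (5.37%), and for 73 of the 417 genes that had at least 10 FPKM throughout.

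**Figure D2:**
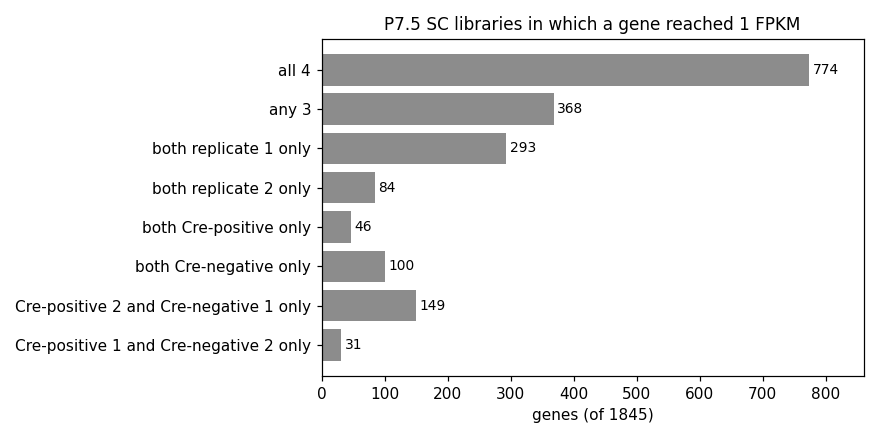
Bars count the genes by the P7.5 SC libraries in which they reached 1 FPKM, out of 1845 genes in all. The bar for both replicate 1 libraries (293) is longer than the bars for both Cre-positive (46) and both Cre-negative libraries (100).

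The files give FPKM and no fragment totals. Steps in the low values of genes with a single transcript put the libraries at about 6990000 to 11400000 fragments, an estimate in which 66.7 to 72.0% of the low values came within 0.1 of a whole fragment. At these depths 3 fragments on a transcript of 2 kb correspond to 0.145 to 0.236 FPKM. The 10 genes with the most fragments took 35.1 to 38.0% of a library. Among genes that had at least 10 FPKM in a given library, 4.27 to 6.69% were listed at 0 in the other replicate of the same genotype, against 0.473 to 2.45% in the same-numbered library of the other genotype. Genes that every cell uses, such as those for ribosomal proteins, were often at 0 as well, so a value of 0 is given here as listed at 0. Differences of log2(FPKM + 1) against such values depend on the added 1 and are no fold changes. Rpl22, the gene that carries the tag, was listed at 0 in all 4 SC libraries and at 0.0645 and 1.12 FPKM in the P7.5 retina libraries. Its FPKM does not separate the tagged from the untagged allele and provides no check of the genotype.

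A gene was called consistent when its lower value in one genotype exceeded its higher value in the other by at least 1 on the log2(FPKM + 1) scale, here the gap. By this rule 35 of the 1845 genes (1.9%) were higher in both Cre-positive libraries and 105 (5.69%) were lower. Without a minimum gap, the genotypes did not overlap in 132 genes (7.15%) on the higher side and in 261 genes (14.1%) on the lower side. No gene passed the test of limma, which called 0 higher and 0 lower genes (0% of 1843 tested) after adjustment with a threshold of 0.05. Before adjustment, p was under 0.05 for 14 higher (0.76%) and 44 lower genes (2.39%). The smallest adjusted p was 1. NOISeq, the method of the study, rebuilt here on FPKM times transcript length, also called 0 higher and 0 lower of 1780 genes at a probability of 0.7, with 0.662 as the largest probability. The study itself ran NOISeq on read counts and reported axonally translated mRNAs at every stage, P7.5 among them. Its input differed from the filtered FPKM used here, so the rebuilt form does not repeat or test the study's calls. With 2 libraries against 2, an exact two-sided permutation test of a single gene cannot go below p = 0.333. Exchangeable libraries without tied values would separate fully, in either direction, with that same probability, which stands beside the shares of 7.15 and 14.1% above. The consistent genes are therefore described by their values and not as significant differences.

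The surplus on the lower side differed between the pairs. In the replicate 1 pair 218 genes were at least 1 higher and 564 at least 1 lower in the Cre-positive library on the log2 scale, while in the replicate 2 pair the numbers were 447 and 423. The median difference over all genes was -0.37 in the first pair and 0 in the second. After scaling by median ratios, 44 genes were higher and 88 lower. When Cre-positive replicate 1 was left out, 267 genes were higher and 247 lower. The counts were 93 higher and 264 lower without Cre-positive replicate 2, 172 and 322 without Cre-negative replicate 1, and 110 and 251 without Cre-negative replicate 2. Leaving out a library removes a value that has to meet the rule, so no count can fall. In 233 genes (12.6%) the 2 pairs differed by at least 1 in opposite directions.

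The higher genes were mostly of low abundance and came from unlike functional classes. Vtn, which encodes the adhesive matrix glycoprotein vitronectin, had the largest gap, with 8.77 and 33.7 FPKM in the Cre-positive and 0.0918 and 0.121 FPKM in the Cre-negative libraries. Its log2 difference was 4.06 ± 1.72 (SE of the limma fit, n = 2 against 2; unadjusted p = 0.029, adjusted p = 1 by limma). Thrsp, a nuclear regulator of lipid synthesis induced by thyroid hormone, followed with 6.39 and 25.8 FPKM against 0 and 0.222 FPKM. Pnoc, the precursor of the neuropeptide nociceptin, was at 3.67 and 10.3 FPKM against 0 and 0.0981 FPKM. For all of these genes both Cre-positive values stood clear of both Cre-negative values, and Cre-positive replicate 2 was higher than replicate 1.

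In the mm10 genome build, Vtn (ENSMUSG00000017344) lies on chromosome 11 from 78499091 to 78502324, Thrsp (ENSMUSG00000035686) on chromosome 7 from 97412938 to 97417730 and Pnoc (ENSMUSG00000045731) on chromosome 14 from 65400673 to 65425472. The deposited value covers all transcripts of a gene and does not point to a part of it.

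Sec61a1, the pore-forming subunit of the translocon through which secretory and membrane proteins enter the endoplasmic reticulum, had 11.2 and 26.2 FPKM in the Cre-positive and 2 and 0.296 FPKM in the Cre-negative libraries. Ppp1r9a, which encodes neurabin, an actin-binding protein that anchors protein phosphatase 1 in neurites and synapses, was among the few that were measured above 1 FPKM in every library, with 22.7 and 32.6 FPKM against 5.64 and 2.5 FPKM. Its log2 difference was 2.55 ± 1.93 (SE, n = 2 against 2; unadjusted p = 0.2, adjusted p = 1 by limma). Pja1, a RING-type ubiquitin ligase, was at 3.83 and 22.2 FPKM against 0 and 0.428 FPKM. These 3 genes encode proteins of secretion, synaptic structure and protein turnover, and each was higher in the Cre-positive replicate 2 than in the Cre-positive replicate 1 library.

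Among the other genes with the largest gaps, Kctd4 was at 4.84 and 28.5 FPKM against 0 and 0.729 FPKM. Pdcd5, linked to cell death, was at 3.08 and 8.42 FPKM and was listed at 0 in both Cre-negative libraries. Rp9, whose human counterpart is mutated in a form of retinitis pigmentosa, was at 4.03 and 6.82 FPKM against 0.151 and 0.296 FPKM. Lurap1l was at 2.8 and 8.52 FPKM against 0 and 0.0621 FPKM. As a group, the 35 higher genes had a median FPKM of 2.8 and 12.04 in the Cre-positive libraries and of 0.0918 and 0.146 in the Cre-negative libraries, and 33 of the 35 were higher in Cre-positive replicate 2 than in replicate 1. Over all tested genes the median FPKM was also higher in Cre-positive replicate 2, at 7.74 against 3.79 in replicate 1. The log2 differences of the 35 higher genes ranged from 1.38 to 4.06 with a median of 2.51. A value of 10 FPKM or more in both Cre-positive libraries was reached by 5 of them.

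Dhrs3, an enzyme that reduces retinaldehyde, was an abundant higher gene and is named after its values were seen. It was at 88.8 and 109.9 FPKM in the Cre-positive and at 29.4 and 10.3 FPKM in the Cre-negative libraries. The Cre-positive replicates were close to each other and stood above both Cre-negative values. In P7.5 retina Dhrs3 was at 2307 and 2376 FPKM.

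**Figure D3:**
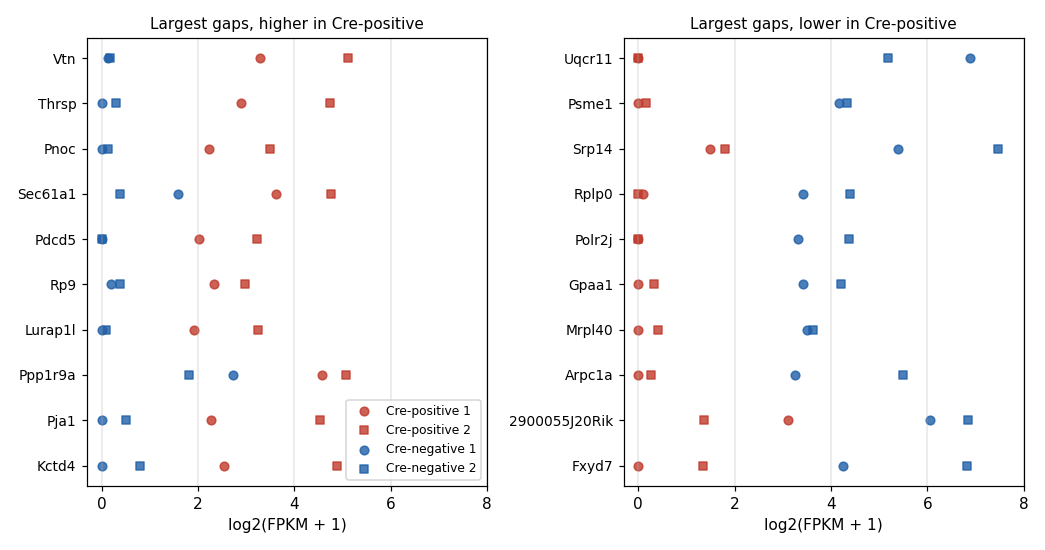
Points give log2(FPKM + 1) in each of the 4 P7.5 SC libraries for the 10 genes with the largest gap in each direction, with Cre-positive libraries in red, Cre-negative libraries in blue, replicate 1 as circles and replicate 2 as squares. No red point overlaps the range of the blue points of its gene, and the gaps run from 1.76 to 3.12 on the higher side (Kctd4 to Vtn) and from 2.89 to 5.18 on the lower side (Fxyd7 to Uqcr11).

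Uqcr11, a small subunit of respiratory complex III, had the largest gap of all and was listed at 0 in both Cre-positive libraries, against 117 and 35.2 FPKM in the Cre-negative libraries. Its log2 difference was -6.03 ± 2.31 (SE, n = 2 against 2; unadjusted p = 0.017, adjusted p = 1 by limma). Psme1, a subunit of the proteasome activator PA28, was at 0 and 0.118 FPKM against 16.9 and 19.1 FPKM. Srp14, an RNA-binding subunit of the signal recognition particle, was at 1.81 and 2.51 FPKM against 40.9 and 175 FPKM. Polr2j, a subunit of RNA polymerase II, was listed at 0 in both Cre-positive libraries against 8.93 and 19.8 FPKM. The genotypes did not overlap in any of these genes, and Srp14 differed from the others in being above 1 FPKM in both Cre-positive libraries.

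In mm10, Uqcr11 (ENSMUSG00000020163) lies on chromosome 10 from 80402997 to 80406830, Psme1 (ENSMUSG00000022216) on chromosome 14 from 55578123 to 55581529, Srp14 (ENSMUSG00000009549) on chromosome 2 from 118475850 to 118479711 and Polr2j (ENSMUSG00000039771) on chromosome 5 from 136116631 to 136122947. At the estimated depths, Uqcr11 rested on about 216 and 98 fragments in the Cre-negative libraries and Polr2j on about 29 and 98.

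Gpaa1, a subunit of the transamidase that attaches GPI anchors to proteins, was at 0 and 0.248 FPKM in the Cre-positive and 9.73 and 17.6 FPKM in the Cre-negative libraries. Arpc1a, a subunit of the Arp2/3 complex that nucleates branched actin, was at 0 and 0.197 FPKM against 8.49 and 43.9 FPKM. Fxyd7, a brain regulator of the sodium and potassium pump, was at 0 and 1.55 FPKM against 18.0 and 113 FPKM. The RIKEN transcript 2900055J20Rik was at 7.57 and 1.59 FPKM against 65.3 and 114 FPKM, and was alone among the 10 with the largest gaps in exceeding 5 FPKM in a Cre-positive library. In Fxyd7 and Arpc1a the Cre-negative replicates were far apart, replicate 2 being the higher.

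Over the 105 lower genes, the median FPKM was 0.147 and 0.134 in the Cre-positive and 4.43 and 17.6 in the Cre-negative libraries, and 87 of the 105 were higher in Cre-negative replicate 2 than in replicate 1. Their log2 differences ranged from -1.21 to -6.03 with a median of -2.84. Both Cre-negative libraries reached 10 FPKM in 27 of them. Cre-positive replicate 1 listed 43 of them at 0 and Cre-positive replicate 2 listed 20, with 12 at 0 in both. Of the 35 higher genes, 16 were listed at 0 in Cre-negative replicate 1, 6 in Cre-negative replicate 2 and 5 in both.

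Most consistent genes had entered through the genotype in which they were high. Of the 35 higher genes, 29 reached 1 FPKM in the Cre-positive libraries alone, and of the 105 lower genes, 69 reached it in the Cre-negative libraries alone, so these genes passed the filter through the genotype in which they were high. In all 4 libraries 1 FPKM was reached by 4 of the higher and 11 of the lower genes. At the edge of the rule on the higher side stood Gpc4, a glypican, with a gap of 1.04 inside and Mrpl35, a mitochondrial ribosomal protein, with 0.97 outside. On the lower side Rgs17, a regulator of G-protein signalling, had a gap of 1.002 inside and Dynll2, a dynein light chain, of 0.98 outside.

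The smallest p-values of limma belonged in part to other genes, since limma weighs the spread over all 16 SC libraries. On the lower side Glb1, the lysosomal beta-galactosidase, came first with 0 and 0 FPKM in the Cre-positive and 3.57 and 11.8 FPKM in the Cre-negative libraries, a log2 difference of -2.94 ± 0.72 (SE, n = 2 against 2; unadjusted p = 0.00056, adjusted p = 1 by limma). Lime1, a membrane adaptor of lymphocyte signalling, was at 0 and 0.415 FPKM against 5.24 and 48.9 FPKM. Krt19, an epithelial keratin, was at 0.0724 and 0.0779 FPKM against 1.82 and 7.45 FPKM, and the long noncoding RNA Miat was at 0 and 0.149 FPKM against 1.88 and 16.1 FPKM. Mrpl40, a protein of the mitochondrial ribosome, completed these 5 with 0 and 0.322 FPKM against 10.3 and 11.3 FPKM. Mrpl40 had the closest Cre-negative replicates of these genes.

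On the higher side Ttc21b, a component of intraflagellar transport in cilia, was at 1.96 and 21.8 FPKM against 0.573 and 0.263 FPKM, a log2 difference of 2.54 ± 0.85 (SE, n = 2 against 2; unadjusted p = 0.0072, adjusted p = 1 by limma). Jazf1, a zinc-finger cofactor of transcription, was at 2.2 and 14.9 FPKM against 0 and 0.171 FPKM. Pigs, a further subunit of the GPI transamidase to which Gpaa1 belongs, was at 1.29 and 14.1 FPKM against 0 and 0.204 FPKM. The RIKEN transcript 4833427F10Rik was at 1 and 3.8 FPKM against 0 and 0.073 FPKM, and Pnoc, described above, was also among these 5. Ttc21b, Pigs and 4833427F10Rik did not overlap between the genotypes but had gaps under 1. Glb1, which had the smallest p, Ttc21b, 4833427F10Rik, Krt19 and Miat did not exceed 1.62 FPKM in any SC library of the other stages. The SE of their differences ran from 0.61 to 0.85.

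Among the consistent genes, those of the respiratory chain were all on the lower side. Of 48 genes for subunits of respiratory complexes II to V, 14 were among the genes tested, of which 0 were higher and 4 were lower in both Cre-positive libraries, beside 1.9% higher and 5.69% lower over all 1845 genes. The median log2 difference was -1.55 in the list and -0.09 over all genes, and it includes genes such as Uqcr11, Cox4i2 and Sdhb that passed the filter through the Cre-negative libraries alone. Uqcr11 was joined by Cox8a, a subunit of complex IV, with 0 and 6.8 FPKM against 22.9 and 22.1 FPKM. Cox4i2, an isoform of a further complex IV subunit, was at 0 and 0 FPKM against 1.9 and 2.64 FPKM. Sdhb, the iron-sulfur subunit of complex II, was at 0.288 and 0.315 FPKM against 2.28 and 14.5 FPKM. The Cre-negative values of Cox4i2 were close to the filter, whereas those of Cox8a were above 20 FPKM in both replicates.

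The same shares of all genes, 1.9% higher and 5.69% lower, stand beside the counts of the next lists. For complex I, 10 of 45 genes were tested and 1 was lower, Ndufs1, a core subunit, with 0 and 0.295 FPKM against 2.7 and 26.4 FPKM. The median log2 difference of the 10 was -0.41, and it includes Ndufs1, which passed the filter through the Cre-negative libraries alone. Mitochondrial ribosomal proteins counted 13 tested of 77, with 0 higher and 3 lower and a median of -0.47. Besides Mrpl40, these were Mrpl12, at 0 and 0.246 FPKM against 5.52 and 24.4 FPKM, and Mrpl42, at 0 and 0.199 FPKM against 7.38 and 2.97 FPKM. Mrpl40, Mrpl12 and Mrpl42 also passed the filter through the Cre-negative libraries alone. In these lists the summed FPKM of all members differed between genotypes in both pairs for complexes II to V, with 76.9 and 146 in the Cre-positive and 382 and 453 in the Cre-negative libraries, and for complex I, with 58.4 and 126 against 179 and 331. For the mitochondrial ribosome the sums of 119 and 393 against 219 and 405 differed little in replicate 2.

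Of 86 genes for cytosolic ribosomal proteins, 25 were tested. In both Cre-positive libraries 2 were higher and 3 lower, beside 1.9 and 5.69% of all genes, and the median log2 difference was -0.10. Lower were Rplp0, a protein of the ribosomal stalk, with 0.0732 and 0 FPKM against 9.68 and 20.1 FPKM, Rpl7 with 0 and 1 FPKM against 11.9 and 100.5 FPKM, and Rps18 with 0 and 0.87 FPKM against 7.11 and 40.0 FPKM. Rplp0 and Rps18 passed the filter through the Cre-negative libraries alone. Rpl13a, named after its values were seen, was higher, with 3.14 and 6.45 FPKM against 0.345 and 0.675 FPKM. It passed the filter through the Cre-positive libraries alone. These proteins work as a single particle, yet between 46 and 62 of the 86 genes were listed at 0 in each library. Ribosomal protein genes have many processed pseudogenes, and how reads were divided between near-identical copies makes their single values uncertain.

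Of the other lists of cellular machinery, none had more than 1 consistent gene, beside 1.9% higher and 5.69% lower over all genes. Proteasome genes counted 5 tested of 50, with Psme1 as the 1 lower gene and a median log2 difference of -1.12. Translation factors counted 16 of 63, of which 1 was lower, Eif4enif1, which binds the cap-binding protein eIF4E and holds mRNAs in a repressed state, with 13.8 and 1.75 FPKM against 37.3 and 57.2 FPKM. Chaperones counted 5 of 83 with 1 lower, Dnajc14, a J-domain protein of the endoplasmic reticulum, with 2.72 and 0.135 FPKM against 11.2 and 30.4 FPKM. Lysosomal genes counted 3 of 28 with Glb1 as the 1 lower gene, and genes of ATPases and ion homeostasis 4 of 17 with Fxyd7 as the 1 lower gene. No gene of these lists was consistently higher. Psme1 and Glb1 passed the filter through the Cre-negative libraries alone, and the median of the proteasome list includes Psme1.

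Lists tied to the axon and synapse had 0 or 1 consistent genes each, beside 1.9% higher and 5.69% lower over all genes. Of 33 genes of the growth cone and axonal cytoskeleton, 22 were tested, 0 were higher and 1 was lower, with a median log2 difference of -0.11. The lower gene, Tmsb10, which sequesters actin monomers, was listed at 0 in both Cre-positive libraries and stood at 1.97 and 1.01 FPKM in the Cre-negative libraries, close to the filter. Of 30 genes of synaptic vesicles and release, 9 were tested and 1 was lower, Syn3, a synapsin, with 1.39 and 0.404 FPKM against 4.67 and 43.5 FPKM. No consistent gene was found among 6 tested genes of axon guidance, 6 of axon degeneration and cell death, 9 of glutamate receptors and the postsynaptic density, 7 of Wnt signalling, 12 of molecular motors, 6 Rab GTPases, 13 of ubiquitin conjugation and deubiquitination, 7 linked to neurodegeneration and 2 immediate early genes. None of 21 neurotrophin signalling genes reached the filter.

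Several of these genes were abundant in every library, and the following examples were picked after their values were seen. Marcks, a membrane-bound regulator of actin, was at 502 and 598 FPKM in the Cre-positive and 530 and 389 FPKM in the Cre-negative libraries. Atp2b2, a calcium pump of the plasma membrane, was at 323 and 277 FPKM against 309 and 424 FPKM. Efna5, a ligand that guides retinal axons to their place in the SC, was at 109 and 162 FPKM against 53.4 and 205 FPKM. In each of these genes the genotypes overlapped.

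**Figure D4:**
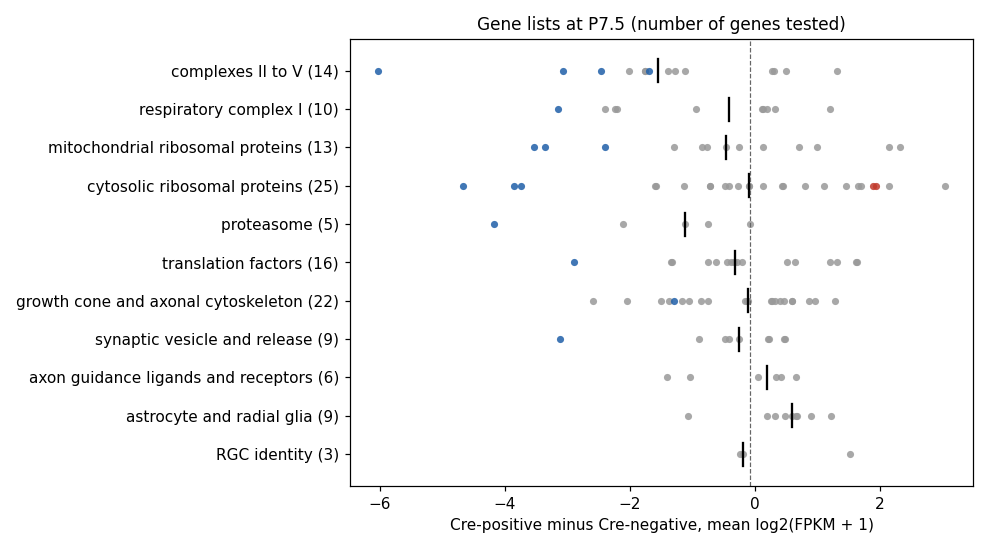
Each point is a tested gene of a list, placed by its Cre-positive minus Cre-negative difference in mean log2(FPKM + 1) at P7.5, with genes lower in both Cre-positive libraries in blue, higher in red and all others in grey. Black bars mark the median of each list and the dashed line the median of all 1845 genes (-0.09). Among the lists drawn, the bar of complexes II to V (-1.55) lies furthest to the left and that of astrocyte and radial glia genes (0.60) furthest to the right. Not all lists are drawn, and the medians of the lysosome list (-1.62, 3 tested genes) and the Wnt list (0.80, 7 tested genes) lie further out. Some medians include genes that passed the filter only through the genotype in which they were high.

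Transcript length moved with the lower genes. The median transcript length was 1495 bases for the lower genes, 2282.5 bases for the higher genes and 2188 bases for all tested genes, with a length known for 96.2, 100 and 96.5% of them. Among genes with transcripts under 1000 bases, 34 of 325 (10.5%) were lower and 6 (1.85%) were higher. Among longer genes, 67 of 1455 (4.6%) were lower and 29 (1.99%) were higher. The tested genes of complexes II to V had a median length of 652 bases, those of complex I 797.5 bases and those of the cytosolic ribosomal proteins 646.5 bases. Of the 25 tested genes of the last list, 2 were higher and 3 lower, beside 1.85 and 10.5% of all genes under 1000 bases. The part of length in the lower counts was not tested. The GC content was 50.3% in the higher, 52.5% in the lower and 50.4% in all tested genes, as medians.

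No tested marker of the cells that the dissected tissue could hold was consistent, but few were tested and 1.9% higher and 5.69% lower was the share over all genes, so the absence of calls says little. Of 19 RGC markers 3 were tested. Pou4f1, a transcription factor of RGCs that resident neurons of the midbrain express as well, was at 175 and 457 FPKM in the Cre-positive and 191 and 582 FPKM in the Cre-negative libraries. Ebf1 was at 18.6 and 43.5 FPKM against 4.69 and 17.6 FPKM, its genotypes separated by less than the gap required, and Klf7 at 0.149 and 28.3 FPKM against 0 and 42.5 FPKM. The summed FPKM of the 19 markers was 196 and 529 against 213 and 646, following the replicate number. Rbpms, which among retinal neurons marks RGCs, was listed at 0 in all 4 SC libraries and in both P7.5 retina libraries, and Slc17a6, the glutamate transporter of RGC terminals, did not exceed 0.127 FPKM.

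Of 17 markers of astrocytes and radial glia 9 were tested, with 0 higher and 0 lower and a median log2 difference of 0.60. Gja1, the main gap junction protein of astrocytes, was at 288 and 642 FPKM in the Cre-positive and 191 and 379 FPKM in the Cre-negative libraries, and Sox9 at 91.8 and 78.5 FPKM against 52.6 and 104 FPKM. The summed FPKM of the 17 markers was 599 and 1011 against 381 and 535. The sums were higher in the Cre-positive library of each number, but in replicate 1 they rested on Gja1, Sox9 and Glul, while Apoe with 6.52 against 14.3 FPKM and Fabp7 with 0.291 against 8.65 FPKM had the opposite order. The part of these cells in the comparison was not tested. None of 20 markers of microglia and complement reached the filter, and 18 to 20 of them were listed at 0 in each library.

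Markers of the oligodendrocyte lineage counted 1 tested of 17, Cnp, with 26.5 and 63.8 FPKM against 44.5 and 65.6 FPKM, while Mbp did not exceed 0.0964 FPKM. Markers of endothelium and blood counted 2 of 14, and those of inhibitory neurons 2 of 15. Gata3, a factor of inhibitory midbrain neurons, was at 219 and 182 FPKM against 112 and 194 FPKM. The photoreceptor list had 1 tested gene of 18, Opn1sw, a cone opsin, at 1.96 and 0 FPKM against 1.03 and 0.0422 FPKM, and the list of other retinal cells and lens 1 of 19. None of these was consistent.

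The consistent genes were next followed in libraries that had not entered the rule. Per the study, the retina libraries hold ribosome-bound mRNA of Cre-positive mice, and retinal neurons other than RGCs carry tagged ribosomes as well. In P7.5 retina, where the labelled RGC bodies lie, 6 of the 35 higher genes (17.1%) and 6 of the 105 lower genes (5.71%) reached 1 FPKM in both libraries, compared with 754 of all 1845 tested genes (40.9%). In at least 1 of the retina libraries the shares were 77.1, 55.2 and 79.2%. The mean FPKM over the 4 SC libraries had a median of 3.74 in the higher, 6.76 in the lower and 8.86 in all tested genes. The part of this lower level in the retina shares was not tested. The retina libraries themselves were unequal, with 1165 and 3449 genes at 1 FPKM or more. Among the leading higher genes, Vtn was at 0.0812 and 20.6 FPKM, Sec61a1 at 0.804 and 19.1 FPKM and Lurap1l at 2.18 and 35.2 FPKM in retina. Thrsp and Kctd4 did not exceed 0.147 FPKM there. Glb1, Lime1 and Krt19 of the lower genes were listed at 0 in both retina libraries.

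At P0.5, 16 of the 35 higher genes (45.7%) met the same rule for higher genes in the SC libraries of that stage, and 5 (14.3%) met the rule for lower genes. Of the 105 lower genes, 32 (30.5%) were higher at P0.5 and 6 (5.71%) were lower. Over all genes with values at P0.5 the numbers were 467 of 1843 (25.3%) higher and 115 (6.24%) lower. At E17.5 none of the 35 higher genes was consistent in either direction and 3 of the 105 lower genes were higher, and in the adult 1 of 35 and 5 of 105 were higher, against 1.74 and 3.79% of all genes. Of the 105 lower genes, 2 (1.9%) were lower again at E17.5 and 1 (0.952%) in the adult, against 2.82% of all genes at both stages. Thrsp and Pnoc were among those higher at P0.5, Thrsp with 54.3 and 36.9 FPKM and Pnoc with 58.9 and 30.6 FPKM in the Cre-positive libraries and 0 in the Cre-negative ones. Pja1 was at 430 and 191 FPKM against 0.522 and 0.0426 FPKM and Ppp1r9a at 489 and 387 FPKM against 200 and 85.4 FPKM at P0.5. Vtn, in contrast, was at 140 and 77.3 FPKM against 175 and 82.7 FPKM, with overlapping genotypes.

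Among the lower genes, Uqcr11 had the same direction at P0.5, listed at 0 in both Cre-positive libraries against 196 and 290 FPKM. For Rpl7, Rps18, Fxyd7, Cox8a, Sdhb and Arpc1a, among others, the P0.5 libraries had the opposite order. Rpl7 was at 263 and 142 FPKM in the Cre-positive P0.5 libraries and listed at 0 in the Cre-negative ones, and Fxyd7 at 187 and 178 FPKM against 0. The difference between the genotypes at P7.5 was compared with the mean of the other 3 stages in a single limma fit. By limma 0 genes were higher and 0 lower after adjustment (0% of 1843 genes), and before adjustment p was under 0.05 for 9 on the higher and 62 on the lower side. Rpl7 had the smallest p in that direction, with a difference from the other stages of -8.96 on the log2 scale (n = 2 libraries per group, adjusted p = 0.819 by limma).

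**Figure D5:**
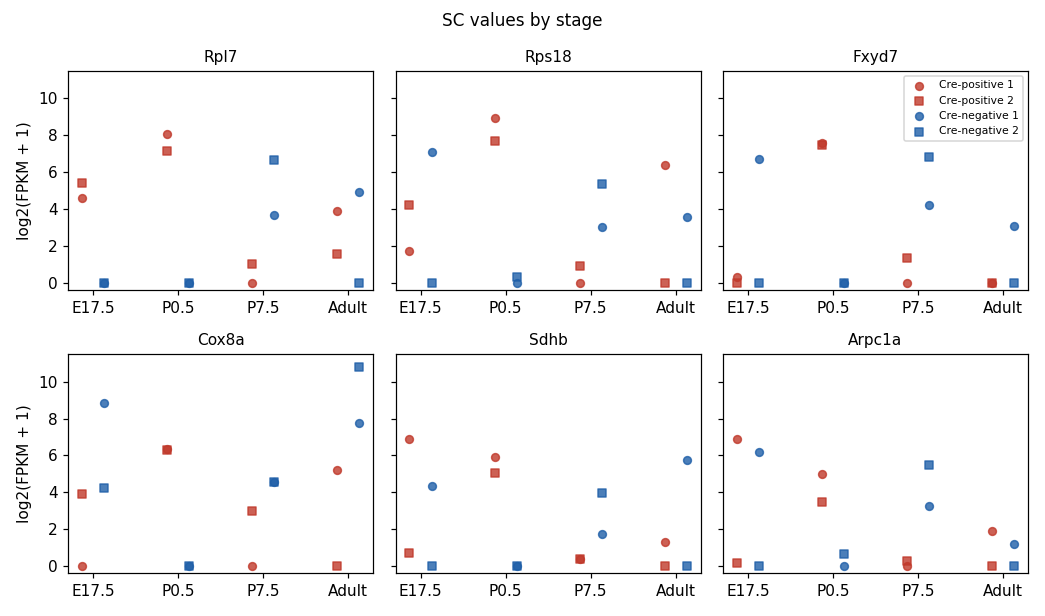
Points give log2(FPKM + 1) of 6 genes that were lower in both Cre-positive SC libraries at P7.5, in the SC libraries of all 4 stages, with Cre-positive in red, Cre-negative in blue, replicate 1 as circles and replicate 2 as squares. The genes were picked after their values were seen for their opposite order at P0.5 and P7.5, so the red points lie above the blue points at P0.5 and below them at P7.5, while at E17.5 and in the adult the replicates of a genotype are often far apart.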

How the data were processed

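Ribosome-bound mRNA was measured in 4 SC libraries at P7.5, which were grouped and numbered by GEO's titles. The authors mapped reads to mm10 with TopHat2 2.0.12 and ran Cufflinks 2.2.1, whose FPKM they deposited by gene symbol. FPKM is scaled to the mapped total, so abundant genes move the values of all others, and PCR amplification from little RNA adds noise that deeper sequencing does not remove. Fragment totals are estimates and cover counting error only.

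Genes at 1 FPKM or more in at least 2 of the 4 libraries were kept, on the scale log2(FPKM + 1), which understates differences of low genes. The two-sided test of limma 3.58.1 (R 4.3.3, statmod 1.5.0) took all 16 SC libraries as 8 groups (8 residual degrees of freedom), with trend and robust settings on. Benjamini-Hochberg adjustment ran over 1843 genes. Actb and Gnb1 were left out of it for entries without a value at another stage, and Hsf2 had no value in 2 of the P7.5 libraries. Nothing says that replicates were separate litters, so p-values measure only the spread between these libraries. NOISeq was rebuilt from how it is described, with a listed 0 replaced by 0.5 fragment. Both were also run on simulated data with genes changed on purpose, and the outcome is not reported here.

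Coordinates, transcript lengths and identifiers came from GENCODE for GRCm38, which is mm10. The genes named are the 10 with the largest gap and the 5 with the smallest limma p in each direction, the consistent members of the gene lists (at most 4 a list, by gap), Rpl22 and cell type markers, besides those said to be picked after their values were seen. Some of the named genes are left out of the text. The members, lists and tests were chosen with earlier results of these data known. Alternatives were another pseudocount, other filters and gaps, median-ratio scaling, a replicate block, the 4 libraries alone, NOISeq and leaving out each library. Limits on transcript length and mean level, and a block within the 4 libraries, were added after seeing the data. Python 3.11.15, pandas 2.3.3, numpy 2.4.6 and matplotlib 3.10.9 were used.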

Additional observations from a re-analysis of the deposited data

Results flagged for a closer look

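A gene is listed here when its genotypes were separated by a gap of at least 1 in opposite directions at P7.5 and at another stage. The differences below are means of log2(FPKM + 1), Cre-positive minus Cre-negative SC, with 2 libraries a group, and the change of direction was not tested gene by gene beyond the limma comparison of P7.5 with the other stages, in which no gene passed. At P0.5 467 of 1843 genes (25.3%) were higher in both Cre-positive libraries.

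Of the named genes lower at P7.5, 8 were higher at P0.5. Over all 105 lower genes, named or not, the number was 32 (30.5%), beside the 25.3% of all genes tested. Rps18 differed by 8.14 at P0.5 and by -3.74 at P7.5, and its P0.5 libraries stood at 483 and 204 FPKM against 0 and 0.248 FPKM. Rpl7 differed by 7.60 at P0.5 and by -4.67 at P7.5, and at E17.5 it differed by 5.01, with 23.2 and 41.9 FPKM against 0. Fxyd7 differed by 7.52 at P0.5 and by -4.86 at P7.5. Cox8a differed by 6.32 and Sdhb by 5.49 at P0.5, against -3.07 and -2.45 at P7.5. Arpc1a differed by 3.89 and Dnajc14 by 3.14 at P0.5, against -4.24 and -3.25 at P7.5.

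Tmsb10, the last of these 8, differed by 2.09 there, with 111 and 140 FPKM against 29.0 and 28.1 FPKM, and by -1.29 at P7.5. Mrpl42 differed by 1.58 at E17.5, with 2.4 and 1.62 FPKM against 0, and by -2.40 at P7.5. The transcript 2900055J20Rik differed by 2.68 in the adult, with 16.7 and 1.32 FPKM against 0, and by -4.21 at P7.5. No named gene that was higher at P7.5 was lower at another stage by this rule, but Dhrs3 and Rpl13a were not among the genes checked. Over all 35 higher genes, named or not, 5 (14.3%) were lower at P0.5, beside 6.24% of all genes tested.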

How the results depend on the processing

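The limma counts at P7.5 and in the comparison with the other stages were 0 in both directions under every alternative run, with the smallest adjusted p at P7.5 between 0.0557 (without Cre-negative replicate 1) and 1. With 2 libraries a genotype and this spread between replicates, 0 genes passing does not show that the genotypes were alike. A gap of at least 1 needs 1 FPKM or more in both libraries of the higher genotype. Dropping the filter or applying it over 16 SC libraries therefore could not change the counts of 35 higher and 105 lower genes. These counts kept within a factor of 1.5 at a pseudocount of 0.1 (48 and 143) and after median-ratio scaling (44 and 88). They became 132 and 261 with no minimum gap and 5 and 30 with a gap of 2. At transcripts of 1000 bases or more they were 29 and 67, and at a mean of 10 FPKM or more 5 and 34. Leaving out each library in turn gave 93 to 267 higher and 247 to 322 lower genes. In none of the 43 genes followed one by one did the genotypes overlap. Another pseudocount or a library left out therefore could not change the sign of their log2 differences. After scaling the sign was kept as well. The size of the differences was less stable. At a pseudocount of 0.1 they moved by over 1.5 times in 32 of the 43 (Vtn to 6.39, Pnoc to 5.48, Polr2j to -7.07). This was so in 3 genes without Cre-positive replicate 1, in 7 without Cre-positive replicate 2, in 6 without Cre-negative replicate 2 (Miat to -1.42) and in 0 without Cre-negative replicate 1 or after scaling.

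The same-numbered libraries deviated together (r = 0.456 between the replicate 1 minus replicate 2 differences of the genotypes over 1845 genes), but the labels give the number no meaning and there are 2 pairs. With the replicate number as a block, limma called 0 higher and 0 lower genes, with 30 and 73 at an unadjusted p of 0.05 in place of 14 and 44, and 21 and 125 in place of 9 and 62 in the comparison with the other stages. A difference of at least 1 within both same-numbered pairs, the block form of the consistent rule, held for 55 higher and 167 lower genes. A block within the 4 P7.5 libraries alone gave 0 and 0 genes, with 36 and 72 at an unadjusted p of 0.05, against 3 and 7 without the block.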
